A study of Mus musculus with 12 samples.

Results

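The mitochondrial ribosomal proteins are the nuclear-encoded proteins of the ribosome that works inside mitochondria. The members described here were the protein-coding genes of the count table whose GENCODE M21 symbol starts with Mrpl or Mrps followed by a digit, 78 of the 55401 genes listed and of the 21897 that are protein-coding. By symbol 49 belong to the large subunit (Mrpl) and 29 to the small subunit (Mrps). By present knowledge of the particle 51 are large-subunit proteins, 26 are small-subunit proteins and Mrps36 is now placed in the oxoglutarate dehydrogenase complex. The same pattern also matched 5 pseudogenes (Mrpl23-ps1, Mrpl48-ps, Mrps36-ps1, Mrps36-ps2 and Mrps36-ps3), which are not members.

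RNA came from primary cultures of the subventricular zone, the stem cell niche beside the lateral ventricles, of CD1 mice. Postnatal neural stem cells (postnatal NSC) were grown from pups at postnatal day 0 to 2 and adult neural stem cells (adult NSC) from mice of 2 months, both as floating neurospheres for 6 to 7 days in serum-free medium with B27, heparin, EGF (20 ng/mL) and FGF (10 ng/mL). Postnatal oligodendrocyte precursor cells (postnatal OPC) came from primary neurospheres of pups of the same age, dissociated and kept as a monolayer for 2 days in B27 with PDGF-AA and FGF (10 ng/mL each). Each group had 4 libraries from independent litters, the labels name no transgene or deletion in any group, and poly(A) RNA was sequenced. Cell type, dissociation, culture form and growth factors changed together between OPC and both NSC groups, and their parts cannot be told apart.

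Mammalian mitochondria make only a few proteins of their own, all of them core subunits of the respiratory chain and ATP synthase, on ribosomes whose RNA is encoded by mitochondrial DNA and whose proteins are all made in the cytosol and imported. Compared with a bacterial ribosome the particle has less RNA and more protein, so that many of its proteins belong to families found only in mitochondria, while others are counterparts of bacterial ribosomal proteins.

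Read counts per library ranged from 38928989 to 54801726 per postnatal NSC library, from 16756231 to 20064043 per adult library and from 17226501 to 23651396 per OPC library. Levels are given as counts per 1000000 (CPM) after TMM scaling. Of 9 OPC marker genes, 7 were higher in OPC than in postnatal NSC and 9 were higher than in adult NSC (edgeR quasi-likelihood test, adjusted p under 0.05, which is what "called" means throughout). Of 7 neural stem markers, 2 were higher and 4 lower in OPC than in postnatal NSC, and 3 were higher and 3 lower than in adult NSC. Of 3 ependymal markers tested, 3 were lower in OPC than in postnatal NSC and 2 lower than in adult NSC. Summed markers of endothelium and of pericytes and fibroblasts reached at most 15.87 and 15.74 CPM, both in postnatal NSC. Markers of microglia summed to at most 1.97 CPM in any library. Markers of mature oligodendrocytes were highest in postnatal NSC 3 (328 CPM) and, among OPC libraries, in OPC 2 (77.05 CPM). Of 5 neuroblast and neuron markers tested, 4 were higher in OPC than in each NSC group, and the part of any such cells in the results was not tested. Postnatal NSC 3 and OPC 2 were also the highest of their groups for the summed neuroblast and neuron markers, at 1005 and 1975 CPM, and also stood apart in the summed level of 24 DNA replication genes, at 1041 CPM against 2063 to 2768 CPM in the other postnatal NSC libraries and 879.2 CPM against 2933 to 3416 CPM in the other OPC libraries. In bulk samples fewer cells of a type and less RNA per cell cannot be told apart.

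The members' promoters are shown first, because their windows hold some short motifs at other shares than the windows of all tested genes. RefSeq promoter windows (GRCm38.p6, 250 bases before to 50 after the start) were found for 69 of the 78 members, 75 windows in all, with a median GC content of 58.7% against 60.7% over 13948 windows of tested genes. The core of an ETS-factor site, CCGGAAG on either strand, stood in 26 member windows (34.7%), against 16.4% of the windows of tested genes and 8.9% of all 32851 windows. ETS factors include GABPA, the DNA-binding subunit of nuclear respiratory factor 2, long known as a regulator of nuclear genes for mitochondria. These stretches upstream of the RefSeq start hold that core, in capitals, on the gene's strand or as its reverse complement.
Mrpl34, chr8:71464806-71464925, plus strand: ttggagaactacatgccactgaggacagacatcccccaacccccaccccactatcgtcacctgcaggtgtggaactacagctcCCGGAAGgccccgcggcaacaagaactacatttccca
Mrps27, chr13:99344706-99344785, plus strand: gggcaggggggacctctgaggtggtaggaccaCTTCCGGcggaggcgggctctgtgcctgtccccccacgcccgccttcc
Mrpl58, chr11:115403632-115403751, plus strand: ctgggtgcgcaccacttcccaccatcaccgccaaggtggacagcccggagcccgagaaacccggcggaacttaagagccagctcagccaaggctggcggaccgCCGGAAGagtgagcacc
Mrpl52, chr14:54426789-54426908, plus strand: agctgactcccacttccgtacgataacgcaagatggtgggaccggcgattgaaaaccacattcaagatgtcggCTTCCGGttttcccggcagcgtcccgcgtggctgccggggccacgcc

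Other motifs stood at higher or lower shares. AAGATGGC, a YY1-type core, stood in 12 member windows (16.0%) against 4.2% of windows of tested genes, and GCGCATGC, an NRF1-type core, in 8 (10.7%) against 4.9%. GGGCGG, the core bound by SP factors, was in 52.0% of member windows against 61.7% of windows of tested genes, and TATAAA was in 6.7% against 7.0%. All letters were searched on both strands, and GCGCATGC can overlap itself on the opposite strand. For members described further on, 30 bases round the YY1-type core are given, which in each lie after the RefSeq start, followed by 30 bases before the start of Mrpl32 with the NRF1-type core. Capitals mark the core.
Mrpl42, chr10:95501904-95501933, minus strand: cagattgaagcAAGATGGCgagcgcgcggt
Mrpl35, chr6:71823743-71823772, minus strand: aggcaggctgcAAGATGGCggcttccatct
Mrps7, chr11:115604147-115604176, plus strand: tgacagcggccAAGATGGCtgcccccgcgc
Mrpl32, chr13:14613106-14613135, minus strand, with matches on both strands: ctttgacccttGCGCATGCGCaagaggggc

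Mrps6, the member that changed most, had none of the ETS-, YY1- or NRF1-type cores in its window, and 4 copies of the SP-type core in the stretch shown, marked in capitals, with the first 2 copies overlapping.
Mrps6, chr16:92058150-92058269, plus strand: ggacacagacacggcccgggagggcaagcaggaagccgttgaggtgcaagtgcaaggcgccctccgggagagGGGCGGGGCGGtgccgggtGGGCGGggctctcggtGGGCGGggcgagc
Calls were counted with and without the ETS-type core. Among the 25 tested members that hold it, 11 rose in adult NSC against postnatal NSC, with a median log2 difference of 0.26, and among 43 tested members with a window and no such core 24 rose, with a median of 0.37. A match is a run of letters and not evidence of binding.

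**Figure D1:**
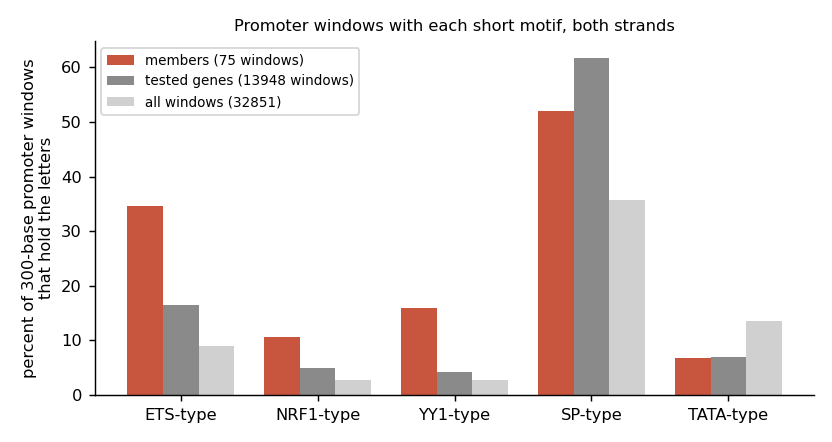
Percent of 300-base RefSeq promoter windows that hold each short motif on either strand, for member windows, windows of all tested genes and all windows. The ETS-type core is in 34.7% of member windows and 16.4% of windows of tested genes, while the SP-type core is in 52.0% and 61.7%.

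Many members share a promoter region with a neighbour. A protein-coding gene on the opposite strand started within 1000 bases upstream of 18 members (23.08%), against 1491 of 22028 protein-coding genes in the annotation (6.77%). Mrps12, the counterpart of a bacterial protein at the decoding centre, starts 172 bases from Sars2, the mitochondrial seryl-tRNA synthetase. Mrps18c starts 29 bases from Helq, a DNA helicase gene, and Mrps18b starts 45 bases from Ppp1r10, which encodes a regulatory subunit of protein phosphatase. Mrps27 starts 81 bases from Ptcd2, which encodes a mitochondrial RNA-binding protein, and the stretch printed for Mrps27 is the gap between both genes.

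All members except Mrpl53 passed the filter on low counts. Mrpl53 was listed at 0 in 11 libraries and at 1 count in adult NSC 4, and 81.98% of its 50-base stretches also occur in Gm42688, which overlaps it on the same strand. The 77 tested members had 201 to 4169 counts in a library. Exons of 33 members overlap another gene, 8 of them on the same strand, and 21 share over 10% of their stretches with another gene. Counts of these members are uncertain, since the handling of such reads is not given in the sources used here.

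Scaled by transcript length (TPM, mean over 12 libraries), the tested members spanned 10.48 to 196.6, an 18.8-fold range with a median of 52.75, and 53 of 77 lay between 0.5 and 2 times that median. The cytosolic ribosomal protein genes had a median of 896.3 TPM. Mrpl42 (196.6 TPM), Mrpl52 (158.2 TPM), Mrps6 (143.5 TPM), Mrps21 (133.2 TPM) and Mrpl28 (128.8 TPM) were highest. Lowest were Mrpl1, a protein of the mobile stalk at the transfer RNA exit, at 10.48 TPM, and Mrps25, Mrpl57, Mrpl35 and Mrpl47, at 12.25 to 14.71 TPM. This order depends on the length used, since TPM over all annotated exons ranked the members with a Spearman correlation of only 0.715 to it, across genes, and put Mrpl42 at 45.41.

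Adult NSC had the highest and the most even levels of the members as a group. Their summed level was 3301, 3259, 3402 and 3339 CPM in adult NSC 1 to 4, 2829, 2704, 2318 and 2908 CPM in postnatal NSC 1 to 4, and 2355, 2390, 2593 and 2557 CPM in OPC 1 to 4. Every adult library was above every library of the other groups, and postnatal NSC 3 lay below all 4 OPC libraries, while the other postnatal NSC libraries lay above them. Postnatal NSC 3 was the lowest of its group for 62 of 77 members. OPC 1 and OPC 2 were each the lowest of theirs for 34. The median SD between replicates was 0.17 in postnatal NSC, 0.07 in adult NSC and 0.11 in OPC on the log2 CPM scale, against 0.28, 0.11 and 0.25 over all tested genes.

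The members' sum was also set against other gene groups. As a percentage of the summed CPM of cytosolic ribosomal protein genes it ran from 6.89% to 7.70% among postnatal NSC libraries, from 8.69% to 8.93% among adult libraries and from 7.78% to 8.33% among OPC libraries, without overlap between groups. Relative to nuclear genes of oxidative phosphorylation the ranges in the same order were 24.4% to 26.25%, 26.39% to 26.69% and 27.24% to 28.19%, so that OPC was highest on this scale. The ratio of large- to small-subunit members stayed between 2.15 and 2.28 in all 12 libraries.

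**Figure D2:**
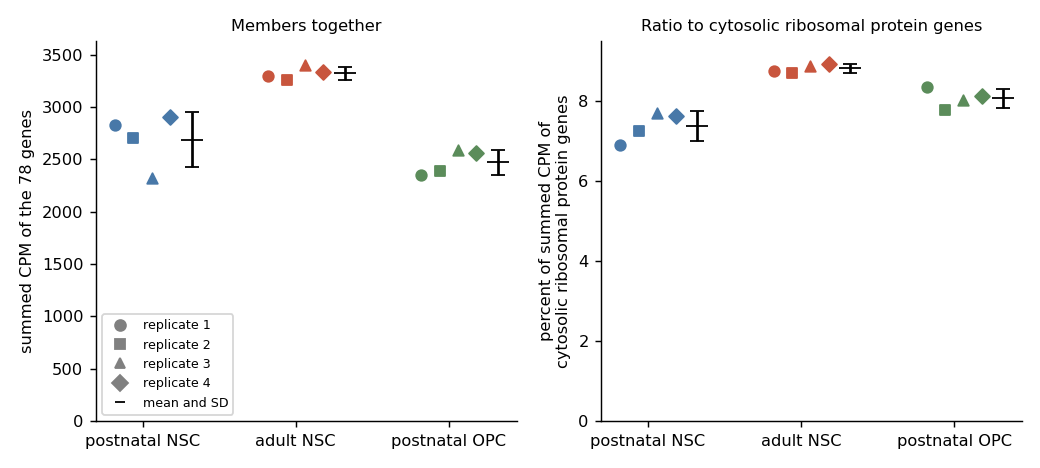
Left, summed CPM of the 78 members in each library; right, the same sum as a percentage of the summed CPM of cytosolic ribosomal protein genes. Points are libraries, marker shapes are replicates, and bars show the mean and SD of 4 libraries; adult NSC lies at 3259 to 3402 CPM, above every other library.

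The first comparison asks how stem cell cultures of adult and newborn mice differ. Relative to postnatal NSC, 41 of 77 members rose in adult NSC and 2 fell (edgeR quasi-likelihood test, Benjamini-Hochberg adjusted p under 0.05), against 25.2% of all tested genes called higher and 27.9% called lower, 53.1% in all. The median log2 difference over the members was 0.37, and -0.03 over all tested genes. Most changes were small, with 27 of the 43 below 1.5-fold. In all 43 the 4 libraries of each group did not overlap. How often called genes separate in this way was not computed over all tested genes. Markers of other cell types differed between the same groups. Lower in adult NSC were 3 of 4 tested astrocyte markers, 3 of 4 of mature oligodendrocytes (1 higher), 6 of 9 of OPC and 3 of 5 of neuroblasts and neurons (1 higher). The summed astrocyte markers ran from 803.3 to 1629 CPM over postnatal NSC libraries and from 978.9 to 1081 CPM over adult ones, and those of mature oligodendrocytes from 33.95 to 328 CPM and from 14.35 to 17.9 CPM. Their part in the members' differences was not tested. By subunit, 26 of 50 large-subunit and 14 of 26 small-subunit members were higher.

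Mrps6, a small-subunit protein with a bacterial counterpart, showed the largest rise. It stood at 54.1, 44.1, 26.4 and 51.7 CPM in postnatal NSC 1 to 4, and at 96.9, 108.7, 95.1 and 106.6 CPM in adult NSC 1 to 4. All adult libraries were well above all postnatal ones, a 2.31-fold difference (log2 1.21 ± 0.20 SE, edgeR adjusted p = 0.000449). The gene lies at chr16:92058270-92112227 (GRCm38), and 464 exonic bases overlap other genes on the same strand, among them Slc5a3, an inositol transporter gene within the same locus. Slc5a3 itself rose from 68.6 ± 32.6 to 355 ± 52.2 CPM (SD, n = 4 each), and its part in the counts of Mrps6 was not tested.

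Mrpl1 (chr5:96209493-96266727) was the steadiest of the large risers. It stood at 14.1, 13.6, 12.6 and 14.1 CPM in postnatal NSC 1 to 4 and at 25.9, 25.5, 26.6 and 25.3 CPM in adult NSC 1 to 4, 1.90-fold higher (log2 0.93 ± 0.11 SE, edgeR adjusted p = 5.77e-05). Replicates of either group differed by less than 2 CPM. Its exons overlap no other gene.

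Mrpl42, a large-subunit protein of a mitochondrial family, stood at 55.7, 38.1, 34.5 and 61.4 CPM in postnatal NSC and at 89.6, 82.5, 91.8 and 88.8 CPM in adult NSC. The postnatal libraries were widely spread and yet all below the adult ones (1.86-fold, edgeR adjusted p = 0.000951). Mrps27, which carries the repeat motif of RNA-binding PPR proteins, stood at 35.3, 29.9, 19.6 and 37.9 CPM in postnatal NSC and 54.1, 52.5, 63.6 and 57.7 CPM in adult NSC (1.86-fold, edgeR adjusted p = 0.00147). A gene on the other strand, 6430562O15Rik, overlaps Mrps27 and was at 0.131 and 1.99 CPM in the same groups. Mrpl47 rose 1.83-fold, Mrpl51 rose 1.74-fold and Mrpl50 rose 1.69-fold, and the exons of Mrpl47 and Mrpl51 overlap other genes.

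Mrpl4 and Mrpl2 were the members that fell. Mrpl4 was 55.01, 59.9, 57.8 and 58.6 CPM in postnatal NSC and 43.8, 47.2, 42.3 and 49.4 CPM in adult NSC (1.27-fold lower, edgeR adjusted p = 0.0046). Mrpl2, counterpart of a bacterial protein beside the peptidyl transferase centre, went from 42.7, 39.9, 37.3 and 40.7 CPM to 30.4, 33.5, 35.0 and 36.3 CPM (edgeR adjusted p = 0.0475). The call of Mrpl2 rests on a narrow margin and was lost in 9 of 20 alternatives, with an adjusted p of up to 0.15.

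The count of rises kept near its value when libraries were left out, at 38 to 43 over the 12 libraries left out in turn and 40 without both postnatal NSC 3 and OPC 2, while the falls ranged from 1 to 6.

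**Figure D3:**
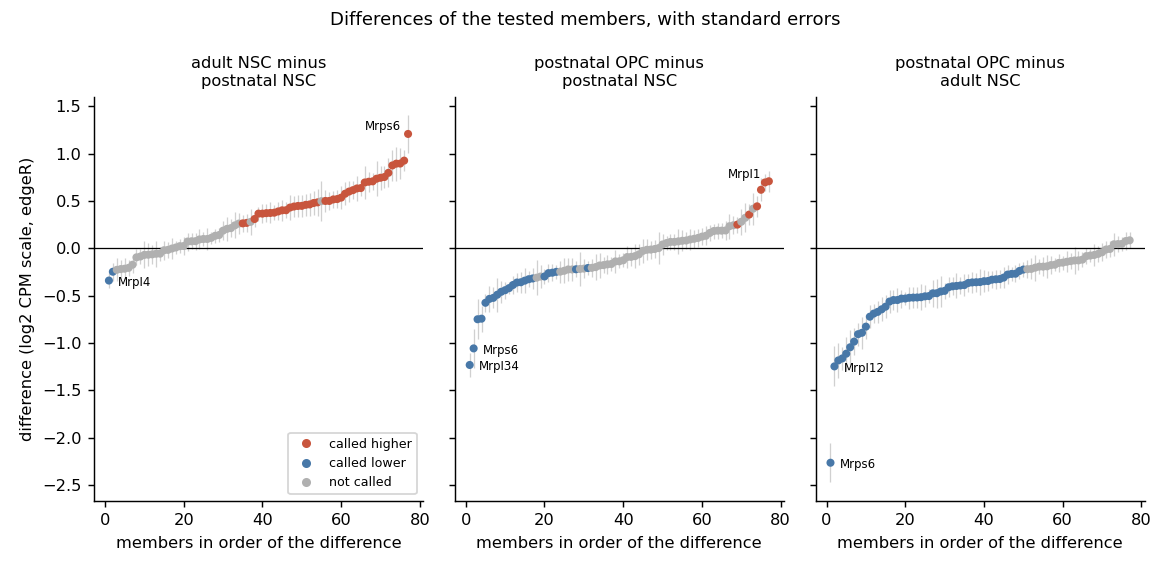
Difference of each of the 77 tested members (log2 CPM scale, edgeR) in 3 comparisons, with members in order of the difference, points coloured by call and bars showing standard errors. In the first panel 41 members are called higher and 2 lower, in the second 6 and 23, and in the third 0 and 50.

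The second comparison asks how postnatal OPC, made from primary neurospheres of pups of the same age, differ from postnatal NSC. In OPC 23 of 77 members fell and 6 rose (edgeR quasi-likelihood test), against 22.7% of all tested genes lower and 22.4% higher, 45.1% in all. The median log2 difference was -0.14, with -0.01 over all tested genes. The members that fell were 29.9% of those tested, and 22 of the 29 calls were below 1.5-fold. The count of falls depended on a single library, postnatal NSC 3, and also on the fit. There were 35 falls and 6 rises without postnatal NSC 3, and 17 to 23 falls when any of the other 11 libraries was left out. With only these 2 groups fitted, and the adult libraries out of the estimate of the spread, there were 13 falls. The 22.7% over all tested genes belongs to the fit of all 12 libraries, and the shares in the other fits are not given here. Of 120 counts over all tested genes in the alternatives, none moved by more than 1.5 times.

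Mrpl34, a small basic protein of the large subunit at chr8:71464959-71465747, fell most. It stood at 29.8, 33.3, 26.9 and 34.4 CPM in postnatal NSC 1 to 4, and at 11.9, 16.4, 12.3 and 12.4 CPM in OPC 1 to 4. No OPC library came near the lowest NSC library (2.35-fold lower, log2 -1.23 ± 0.12 SE, edgeR adjusted p = 1.49e-05). Its exons overlap no other gene and share no stretch with one.

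Mrps6 was 21.7, 16.2, 26.5 and 20.3 CPM in OPC, 2.08-fold lower than in postnatal NSC (edgeR adjusted p = 0.00121), and OPC 3 lay just above postnatal NSC 3. Slc5a3 also fell, to 26.3 ± 4.72 CPM (SD, n = 4), and its part in the counts of Mrps6 was again not tested. Mrpl12, a protein of the stalk that binds translation factors, was 85.1, 70.8, 38.3 and 92.0 CPM in postnatal NSC and 44.5, 34.3, 45.5 and 46.0 CPM in OPC (1.68-fold lower, edgeR adjusted p = 0.0116), and postnatal NSC 3 lay within the OPC range. Mrpl38 was 1.67-fold lower and Mrpl2 was 1.49-fold lower, both with groups that did not overlap.

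The other falls with separate groups among the 6 largest were in small-subunit genes. Mrps24, which overlaps Urgcp on the same strand, was 1.45-fold lower and Mrps12 was 1.44-fold lower, the latter at 21.8, 23.2, 18.6 and 22.0 CPM in postnatal NSC and 13.6, 18.0, 14.0 and 13.9 CPM in OPC. Sars2, its head-to-head neighbour, looked up after these values were seen, fell from 25.1 to 19.3 CPM (edgeR adjusted p = 0.0104). Mrps7 was 1.36-fold lower, and its exons overlap Gga3 and Mif4gd on the opposite strand. Mrps28 and Mrps21 were called lower too, but the calls were lost in 12 and 10 of 20 alternatives.

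The values of members that rose in OPC are given beside those in adult NSC, and both comparisons share the postnatal NSC libraries. Mrpl1 was 18.5, 20.9, 22.6 and 26.7 CPM in OPC, 1.63-fold above postnatal NSC (edgeR adjusted p = 0.000303). Mrpl32, whose product must be cut by a mitochondrial protease before it joins the ribosome, was 17.6, 16.1, 18.0 and 19.4 CPM in the postnatal NSC libraries. In adult NSC it was 29.69, 29.98, 30.12 and 26.34 CPM, and OPC had 26.2, 31.4, 27.7 and 29.9 CPM. Both other groups lay above every postnatal NSC library, by 1.63-fold and 1.62-fold, and overlapped each other. Mrpl50 (1.36-fold), Mrpl35 (1.28-fold) and Mrps5 (1.19-fold) rose less, and the calls of Mrpl35 and Mrps5 were lost in 6 and 9 of 20 alternatives.

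The Mrps18 genes are 3 paralogues of a single bacterial gene that now sit at different places of the ribosome, and their calls differed, a difference that was not tested. Mrps18c was 9.86, 9.56, 10.4 and 10.6 CPM in the postnatal NSC libraries. It was called higher in both other groups, with 15.1, 15.5, 16.0 and 13.5 CPM in adult NSC, and 14.2, 12.8, 17.1 and 17.9 CPM in OPC. Mrps18b was 29.0, 21.9, 15.4 and 30.6 CPM, 41.8, 37.0, 41.4 and 41.0 CPM, and 20.2, 15.7, 20.8 and 21.4 CPM in the same order of groups, with every adult library above all others (1.66-fold above postnatal NSC and 2.07-fold above OPC). Mrps18a, a large-subunit protein in spite of its symbol, was called in no comparison, with means of 38.8, 44.9 and 38.5 CPM. Of the 3, Mrps18b shares 30.17% and Mrps18c 22.85% of its stretches with other genes.

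The third comparison sets postnatal OPC against adult NSC, which differ in age as well as in cell type and medium. In OPC 50 of 77 members fell and none rose (edgeR quasi-likelihood test), against 24.7% of all tested genes lower and 26.3% higher, 51.0% in all. No member was higher at an unadjusted p under 0.05 with edgeR, and DESeq2 called 0 higher and 52 lower. The median log2 difference was -0.36, with 0.01 over all tested genes, and 72 of 77 estimates were below 0. In 49 of the 50 the groups did not overlap, and 35 were below 1.5-fold. Here too the share of called genes with separate groups was not computed over all tested genes. Leaving out single libraries gave 38 to 53 falls, and leaving out postnatal NSC 3 and OPC 2 together gave 54.

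Mrps6 differed most here, 4.81-fold (log2 -2.27 ± 0.21 SE, edgeR adjusted p = 3.81e-06), beside a drop of Slc5a3 from 355 to 26.3 CPM. Mrpl12 had the next largest fall, from 99.2, 98.7, 103.0 and 103.4 CPM in adult NSC to the OPC values given above (2.37-fold, edgeR adjusted p = 0.000421), and 200 of its exonic bases overlap Gm16755 on the other strand. Mrps28 fell from 29.9, 30.4, 30.1 and 29.2 CPM to 12.4, 9.54, 17.2 and 13.5 CPM (2.27-fold, edgeR adjusted p = 0.000191). Both adult ranges were narrow and far above every OPC library. Mrpl34 (2.24-fold), Mrps27 (2.16-fold) and Mrps18b (2.07-fold) completed the falls of more than 2-fold.

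Smaller falls reached members of each class. Mrpl42 was 48.3, 39.9, 47.7 and 54.1 CPM in OPC, 1.86-fold below adult NSC and level with postnatal NSC. Mrpl52, Mrps21, Mrpl28, Mrps25 and Mrpl57 fell 1.25-fold to 1.48-fold. Mrps36, the enzyme-complex protein, fell 1.53-fold, within the range of the ribosomal members. Mrpl58, a peptidyl-tRNA hydrolase built into the large subunit, fell 1.21-fold, a call lost in 7 of 20 alternatives.

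**Figure D4:**
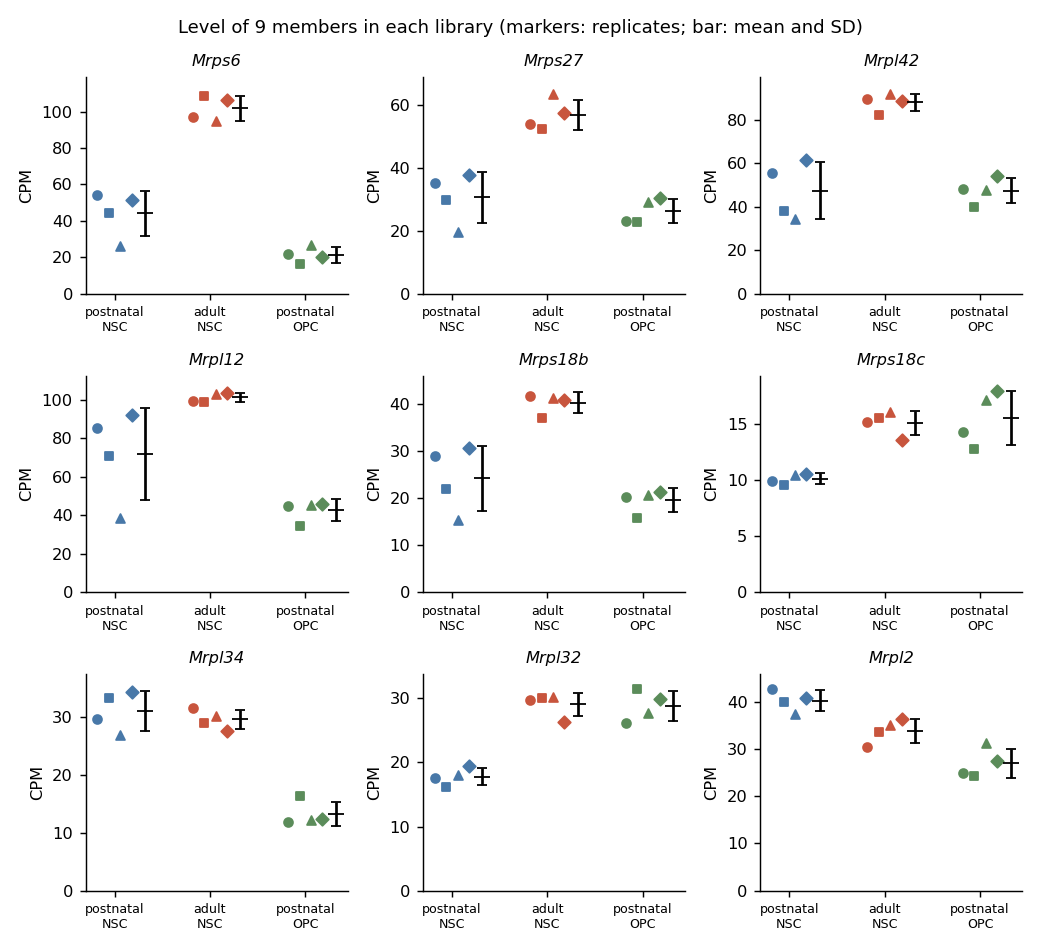
CPM of 9 members in each library, with bars for the mean and SD of 4 libraries per group; vertical axes start at 0. Mrps6, Mrps27, Mrpl42 and Mrps18b are highest in adult NSC, Mrpl34 is low in OPC alone, and Mrpl32 and Mrps18c are low in postnatal NSC alone.

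Group means were highest in adult NSC for 57 of 77 members, in postnatal NSC for 16 and in OPC for 4. They were lowest in OPC for 47, in postnatal NSC for 28 and in adult NSC for 2. Since the 3 comparisons share libraries, their calls are not independent. A call in at least 1 comparison was made for 65 members and none for 12, among them Mrps18a. For adult against postnatal NSC, OPC against postnatal NSC and OPC against adult NSC, 53.1%, 45.1% and 51.0% of all tested genes were called. The share of all tested genes called in at least 1 comparison was not computed, so the 65 members cannot be set against it.

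Calls were also counted by protein family, those shared with bacterial ribosomes and those of mitochondria. Mrps18a was counted with the mitochondrial families of the large subunit, in spite of the bacterial gene named above for the Mrps18 genes. In adult NSC against postnatal NSC, 15 of 30 large-subunit members of shared families and 11 of 20 of mitochondrial families rose, and among small-subunit members 8 of 17 and 6 of 9. In OPC against postnatal NSC the falls numbered 11 of 30 and 3 of 20 in the large subunit, and 8 of 17 and 1 of 9 in the small subunit. Of all tested genes 22.7% were lower in that comparison. In each subunit the members of mitochondrial families lay below that share and those of shared families above it. Whether classes differ in their calls was not tested. Among the 54 members with no same-strand overlap and at most 10% shared stretches, a division chosen after seeing the data, 28 rose and 2 fell in adult NSC, 5 rose and 20 fell in OPC against postnatal NSC, and 39 fell in OPC against adult NSC.

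The remaining proteins of the mitochondrial ribosome carry symbols outside the pattern. Chchd1 rose from 34.2 to 61.3 CPM in adult NSC (edgeR adjusted p = 0.000257) and Ptcd3 from 66.8 to 94.9 CPM (adjusted p = 0.00134). Dap3, a GTP-binding protein of the small subunit, was 87.8 and 84.7 CPM in postnatal and adult NSC and fell to 68.9 CPM in OPC. Of these 5 genes, with Aurkaip1 and Gadd45gip1, 2 rose in adult NSC, and 2 and 4 fell in OPC against postnatal and adult NSC.

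Of 28 genes for assembly and maturation of the ribosomal RNA, 7 rose (25.0%) and 6 fell (21.4%) in adult NSC against postnatal NSC, shares no higher than the 25.2% and 27.9% over all tested genes. Fastkd5 rose from 3.79 to 8.14 CPM and Gtpbp10, a GTPase of large-subunit assembly, from 15.3 to 27.1 CPM, while Mettl17 fell from 28.3 to 13.7 CPM (edgeR adjusted p = 0.000492) and Rpusd3 from 9.45 to 5.15 CPM. In OPC, Mpv17l2 was lower than in both NSC groups, at 7.14 CPM against 16.1 and 15.8 CPM. OPC had 2 higher (7.1%) and 7 lower (25.0%) against postnatal NSC, beside 22.4% and 22.7% over all tested genes. Against adult NSC 3 were higher (10.7%) and 10 lower (35.7%), beside 26.3% and 24.7% over all tested genes.

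Among 16 translation factors 7 rose and 1 fell in adult NSC. Gfm1, the elongation factor that moves the ribosome along, rose from 59.4 to 105.1 CPM and was 52.7 CPM in OPC. Oxa1l, which inserts new proteins into the inner membrane, fell in adult NSC from 90.4 to 60.7 CPM and was 74.0 CPM in OPC, with all 3 differences called. Of 20 genes for charging mitochondrial transfer RNA, 10 were lower and 4 higher in OPC than in postnatal NSC, with Iars2 at 122 and 78.6 CPM. Mars2 was 17.7 CPM in postnatal NSC and called higher in both other groups, at 45.1 and 29.1 CPM. Without postnatal NSC 3 and OPC 2, 7 translation factors were lower and none higher in OPC against postnatal NSC, in place of 3 and 2.

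Of 16 genes that act on mitochondrial DNA and RNA, 7 were higher and 4 lower in adult NSC than in postnatal NSC. In OPC against postnatal NSC 4 were higher (25.0%) and 3 lower (18.8%), near the 22.4% and 22.7% over all tested genes, and 5 and 5 without postnatal NSC 3 and OPC 2. Tfam, which packages mitochondrial DNA and starts its transcription, was 36.8, 54.8 and 48.5 CPM in postnatal NSC, adult NSC and OPC, called higher in both against postnatal NSC. Polrmt, the mitochondrial RNA polymerase, was 41.0, 33.0 and 28.9 CPM and was called lower in OPC. Pnpt1, an RNA-degrading enzyme, rose from 28.6 to 61.1 CPM in adult NSC. The ribosomal RNA genes mt-Rnr1 and mt-Rnr2 are only partly captured by poly(A) selection. Of their 6 tests a single call was made, mt-Rnr2 lower in OPC (258 CPM) than in adult NSC (520 CPM).

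Among 13 regulators of mitochondrial biogenesis 9 rose and none fell in adult NSC, and 7 fell and none rose in OPC against adult NSC (edgeR quasi-likelihood test). Ppargc1a, the coactivator that drives the programme in many tissues, was 29.1, 59.9 and 20.4 CPM in postnatal NSC, adult NSC and OPC. Mycn was 6.41, 14.5 and 3.51 CPM, and Myc was 86.3, 136 and 82.4 CPM with the adult group called higher than both others although postnatal NSC 1 lay within its range. Nrf1 was called in no comparison (50.6, 49.6 and 54.8 CPM). Gabpa was 76.4, 93.2 and 108 CPM, called higher in both other groups than in postnatal NSC. For the 7 falls against adult NSC, the count was 6, with 1 rise, without postnatal NSC 3 and OPC 2.

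The respiratory chain draws subunits from both genomes. Of 80 nuclear genes of oxidative phosphorylation, 34 rose and 4 fell in adult NSC against postnatal NSC, 2 rose and 37 fell in OPC against postnatal NSC, and 2 rose and 60 fell in OPC against adult NSC. The 4 falls in adult NSC became 9 without postnatal NSC 3 and OPC 2. Ndufc2 was 91.4, 169 and 58.8 CPM and Uqcr10 was 64.7, 111 and 51.5 CPM in postnatal NSC, adult NSC and OPC. Of the 13 messenger RNAs of mitochondrial DNA, 12 were called higher and none lower in OPC against postnatal NSC, while 7 were higher, 1 (mt-Nd3) lower and 5 not called in OPC against adult NSC (edgeR). In adult NSC against postnatal NSC 6 were higher (46.2%, beside 25.2% of all tested genes) and none lower. Without postnatal NSC 3 and OPC 2, 10 were higher and none lower in that comparison. Of them mt-Nd5 was 1219 ± 489, 1106 ± 179 and 2395 ± 181 CPM (SD, n = 4 each). As a sum they ranged from 21950 to 34860 CPM over postnatal NSC libraries, from 27230 to 36890 CPM over adult libraries and from 36620 to 45470 CPM over OPC libraries.

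Import components and matrix proteins were higher in adult NSC for 10 of 18 genes and lower for 3, and 13 of 18 were lower in OPC than in adult NSC. Hspd1, the matrix chaperonin, was 398, 814 and 344 CPM in postnatal NSC, adult NSC and OPC. Lonp1, a matrix protease, was 127, 94.5 and 98.9 CPM and was called lower in both other groups than in postnatal NSC. For 14 genes of the amino acid and mitochondrial stress response, 9 were lower in OPC than in postnatal NSC. Gdf15, a secreted stress signal, fell from a mean of 5.03 to 0.0632 CPM, with 0 to 2 counts per OPC library.

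Cytosolic ribosomal proteins moved less in adult NSC than the mitochondrial ones by count, with 13 of 79 higher and 10 lower, or 10 and 19 without postnatal NSC 3 and OPC 2, and the difference between these lists was not tested. In OPC 37 of 79 were lower than in postnatal NSC and 48 lower than in adult NSC, and none was called higher in either (edgeR). Their counts are uncertain, since many have near-identical processed copies. The 24 DNA replication genes were rarely called (1 higher in OPC and 2 higher in adult NSC against postnatal NSC, none in OPC against adult NSC). Still, 23 of 24 estimates were positive in adult against postnatal NSC, with a median log2 difference of 0.49. Their sum was 2978 to 3337 CPM over adult libraries and 1041 to 2768 CPM over postnatal NSC libraries. Once postnatal NSC 3 and OPC 2 were left out, 15 were higher and 1 lower in OPC against postnatal NSC. In that fit 11 were higher and 1 lower in adult NSC, and 4 were higher in OPC against adult NSC.

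**Figure D5:**
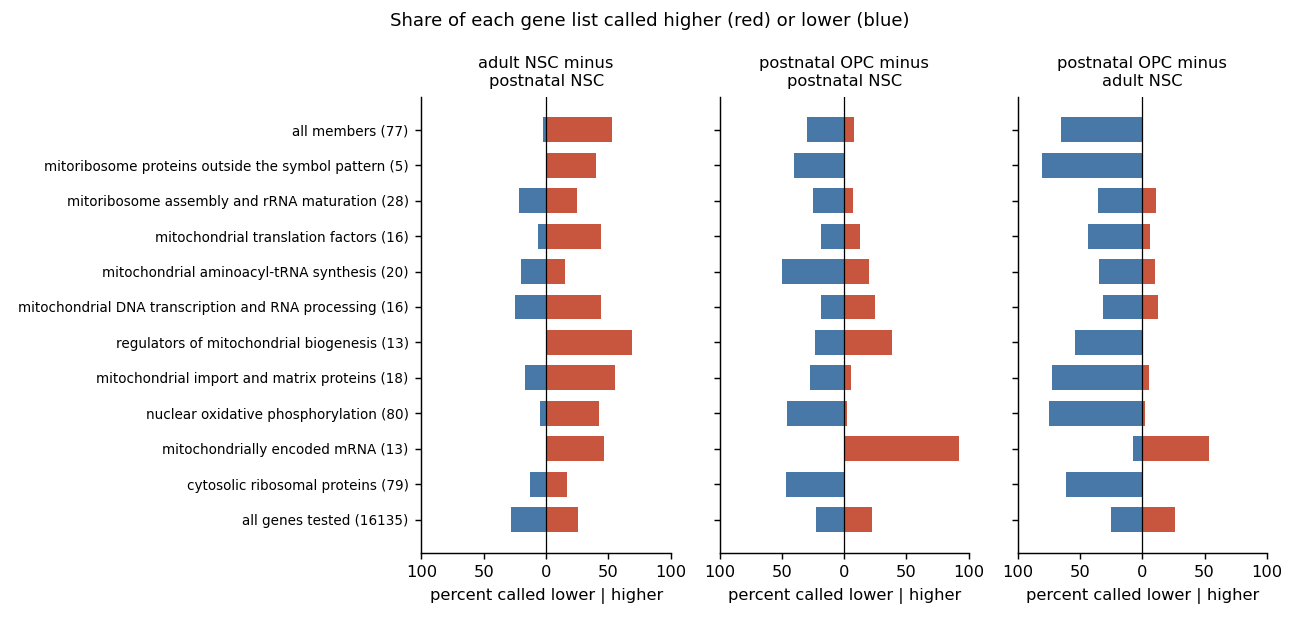
Percent of the tested genes of each list called higher (right, red) or lower (left, blue) in 3 comparisons, with the number of tested genes in brackets and all tested genes in the bottom row. Members are called higher in adult NSC for 53.2% and lower in OPC than in adult NSC for 64.9%, while mitochondrially encoded messenger RNAs are called higher in OPC than in postnatal NSC for 92.3%.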

How the data were processed

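The deposited table holds raw read counts per gene for 12 libraries, made by the authors. Per the labels, poly(A) RNA was sequenced with a stranded kit, and the tools named in the submitters' processing notes are STAR, FastQC and featureCounts (1.22.2), with the build GRCm38. For the annotation release and the handling of strand, overlaps and multiply mapping reads, nothing was stated (not given in the sources used here). Of 55401 identifiers 55141 matched GENCODE M21, and the others held at most 0.013% of a library.

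The filter filterByExpr, set to a minimum count of 10 and a total of 15, passed 16135 genes. TMM factors and an edgeR 4.0.16 quasi-likelihood model (R 4.3.3) with group as its only term were then computed over all 12 libraries together. The 3 groups thus share 1 estimate of the spread, and the p-values of OPC against postnatal NSC also draw on the adult libraries. Adult libraries were the most even, with a median SD over all tested genes of 0.11 on the log2 CPM scale. It was 0.28 in postnatal NSC and 0.25 in OPC. The 3 contrasts were tested two-sided and adjusted by Benjamini-Hochberg over all tested genes, with calls at an adjusted p under 0.05. DESeq2 1.42.0 was an alternative, and the code was checked on simulated data. TPM used the exons of basic protein-coding transcripts.

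Members and gene lists were chosen with earlier results of these data known, so that none is independent support. Members were named by a rule: per comparison the 6 largest called rises and falls with separate groups, members with the same call in both comparisons with postnatal NSC, the 5 highest and 5 lowest by TPM, the Mrps18 genes, Mrpl12, Mrpl58, Mrps36 and untested members. List genes were up to 2 called per direction, with Tfam, Polrmt, Ppargc1a, Myc, Nrf1, Gabpa, mt-Rnr1 and mt-Rnr2 in any case. Overlap with other genes was computed for members only. Replicates are independent litters per the labels. Replicate numbers were not treated as pairs, because the labels do not say that a number marks the same litter across groups. Correlations of same-numbered libraries ran from -0.363 to 0.325. They were not compared with those of other pairs, so they cannot decide this. No pair of replicates was a duplicate (lowest chi-square 3.74 for each degree of freedom). Adult pairs were the closest, at 3.74 to 9.47, against 47.37 to 175.78 for postnatal NSC pairs and 5.99 to 84.74 for OPC pairs. The labels give no batch, and one in step with the groups could not be told apart.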

Additional observations from a re-analysis of the deposited data

Results flagged for a closer look

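In 93 sets of 4 libraries (named members by group among them), 7 had a library far from the other 3 by Dixon's criterion, where chance alone gives about 1 in 20. OPC 2 was flagged for 3 members, with Mrpl12 at 34.29 CPM against 44.53 to 46.02, Mrpl34 at 16.35 CPM against 11.91 to 12.35, and Mrps12 at 18.02 CPM against 13.55 to 14.01. It was low in the first and high in the others. Mrpl52 was flagged in postnatal NSC 3 at 22.61 CPM against 33.65 to 33.85, and in adult NSC 2 at 41.93 CPM against 45.58 to 46.27. Mrpl32 was lower in adult NSC 4, at 26.34 CPM against 29.69 to 30.12. The flag for Mrpl53 was the single count in adult NSC 4 (0.06168 CPM, others at 0).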

How the results depend on the processing

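Counts of called members kept their direction in every alternative tried (other size factors, no filter, DESeq2, fits of only the groups compared, thinning to 16756231 counts, a replicate block, a Y-linked covariate, single libraries left out, postnatal NSC 3 and OPC 2 left out together, and, chosen after seeing the data, only members with little shared sequence), and 17 of 126 moved by more than 1.5 times. In OPC against postnatal NSC, DESeq2 called 10 members higher in place of 6, and the fit of only these groups called 13 lower in place of 23. Leaving out single libraries gave 17 to 35 lower, the 35 without postnatal NSC 3, and the cause was not tested. For adult against postnatal NSC, the 2 falls became 1 without the filter, 1 after thinning, 1 with the replicate block, 4 with only the groups compared, 5 without both libraries that stood apart, and 1 to 6 with single libraries left out (6 without OPC 2, 4 without postnatal NSC 3, postnatal NSC 4 or OPC 1, and 1 without OPC 4 or any adult library). With the replicate block 6 members were higher and 17 lower in OPC against postnatal NSC, 40 higher in adult NSC, and 47 lower in OPC against adult NSC. Of 1740 values of named members 74 lost a call, 23 gained it and none turned direction with a call. The median over the members ranged from 0.273 to 0.372, from -0.187 to -0.123 and from -0.396 to -0.316. Of 1560 counts of the companion lists 165 moved by more than 1.5 times, and of 120 counts over all genes none did. Every tested member had at least 201 counts in each library.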
